A study of Mus musculus with 6 samples.

Results

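The guanylate binding proteins (GBPs) are large GTPases of the dynamin superfamily that cells make in response to interferons. The 10 genes of the mouse family described here were matched by exact symbol and are Gbp2, Gbp3, Gbp4, Gbp5, Gbp6, Gbp7, Gbp8, Gbp9, Gbp10 and Gbp11. They are 10 of the 18122 gene rows of the deposited expression table, and each has a value in all 6 libraries. By RefSeq, 4 of them (Gbp2, Gbp3, Gbp5, Gbp7) lie on mouse chromosome 3 and 6 on chromosome 5, and Gbp11 is annotated as a transcribed pseudogene.

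RNA was sequenced in bulk from CD8+ T cells of mouse lymph nodes, from wild-type (WT) mice and from mice without Dusp2 (Dusp2KO), a phosphatase gene whose product removes phosphate from MAP kinases. All cells of both genotypes spent 18 h on plate-bound anti-CD3 (1 µg/mL) with anti-CD28 (1 µg/mL), with IL-4 at 20 ng/mL and IFN-α at 50 ng/mL, a culture meant to induce virtual memory T cells. Sorting by CD44, a surface glycoprotein that marks activated and memory T cells, gave the CD44hi cells (the brightest) and the CD44lo cells. There are 2 libraries each of WT CD44hi and Dusp2KO CD44hi and 1 each of WT CD44lo and Dusp2KO CD44lo. The labels give the genotype as Dusp2-/- and state no strain, age or sex. Every library thus received the type I interferon IFN-α, and no library without it was analysed here.

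GBPs gather on the membranes of vacuoles that hold microbes and on the microbes themselves, help to break them open and feed inflammasomes, and some members carry a C-terminal CaaX box through which a lipid anchor is added. Their genes respond to both kinds of interferon. IFN-γ, the product of Ifng and a main cytokine of CD8+ T cells, acts through its receptor and the kinases JAK1 and JAK2, and is read in promoters at the gamma-activated site (GAS). Type I interferons act through their own receptor and the kinases JAK1 and TYK2, and are read at the interferon-stimulated response element (ISRE).

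RefSeq promoter entries (GRCm38.p6) were matched for 4 of the 10 genes, and the 250 bases before their starts are shown because all 4 hold the letters of the ISRE and those of Gbp5 and Gbp7 also hold the letters of the GAS. Capitals mark matches to the ISRE core TTTCNNTTTC (GAAANNGAAA on the other strand) and to the palindromic GAS pattern TTCNNNGAA, and all 4 genes lie on the plus strand. The regions are chr3:142620413-142620662 for Gbp2, chr3:142559794-142560043 for Gbp3, chr3:142496684-142496933 for Gbp5 and chr3:142530086-142530335 for Gbp7.
Gbp2: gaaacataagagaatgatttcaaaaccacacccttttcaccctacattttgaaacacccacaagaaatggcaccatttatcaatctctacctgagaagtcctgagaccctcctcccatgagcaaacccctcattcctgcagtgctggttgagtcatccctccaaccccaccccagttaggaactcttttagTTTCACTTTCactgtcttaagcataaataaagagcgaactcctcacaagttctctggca
Gbp3: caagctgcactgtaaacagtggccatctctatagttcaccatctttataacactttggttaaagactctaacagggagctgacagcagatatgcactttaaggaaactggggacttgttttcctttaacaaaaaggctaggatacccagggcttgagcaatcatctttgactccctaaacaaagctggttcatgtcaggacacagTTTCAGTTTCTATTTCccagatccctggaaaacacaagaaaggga
Gbp5: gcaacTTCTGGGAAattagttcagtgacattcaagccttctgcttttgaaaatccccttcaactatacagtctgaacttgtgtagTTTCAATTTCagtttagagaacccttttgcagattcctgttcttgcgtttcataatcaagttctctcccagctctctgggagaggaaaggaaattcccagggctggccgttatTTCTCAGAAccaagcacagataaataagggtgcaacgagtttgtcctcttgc
Gbp7: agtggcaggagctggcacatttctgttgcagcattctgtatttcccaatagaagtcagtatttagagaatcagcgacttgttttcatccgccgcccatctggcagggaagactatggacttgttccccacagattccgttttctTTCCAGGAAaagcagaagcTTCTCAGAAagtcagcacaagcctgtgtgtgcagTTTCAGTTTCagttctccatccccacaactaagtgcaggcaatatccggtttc
Of the 5 RefSeq promoter entries of these genes, the 4 shown hold an ISRE core. Over the same length, 2.98% of the 32851 RefSeq promoters searched do. For Gbp3 the entry shown is the one with a match. In Gbp2 it is TTTCACTTTC, 59 to 50 bases before the start. In Gbp7 it is TTTCAGTTTC, 53 to 44 bases before it. Gbp3 has 2 overlapping matches that share 4 letters, TTTCAGTTTC at 45 to 36 and TTTCTATTTC at 39 to 30 bases, while a second RefSeq start of Gbp3 further downstream has no match. In Gbp5 the match TTTCAATTTC lies further out, at 165 to 156 bases. GAS matches were found 2 times each in Gbp5 (TTCTGGGAA at 245 to 237 and TTCTCAGAA at 52 to 44 bases) and Gbp7 (TTCCAGGAA at 106 to 98 and TTCTCAGAA at 87 to 79 bases), and not in these stretches of Gbp2 and Gbp3. Of all promoters 7.02% hold a GAS match and 0.33% hold both patterns. The same 250 bases of Ifng hold 1 GAS match, TTCAGAGAA at 249 to 241 bases, and no ISRE core. A match describes letters and is not a known binding site.

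Values are FPKM as the authors deposited them, that is fragments divided by gene length and sequencing depth. Reads recovered from them numbered 23490008 in Dusp2KO CD44lo and 42816073 to 55830235 in the other 5 libraries. The labelled genotype and sort were visible in the data. Dusp2 was at 82.6 to 116 FPKM in the WT and at most 0.0283 FPKM in the Dusp2KO libraries, and Cd44 was at 65.3 to 79.9 FPKM in CD44hi and 1.43 and 1.33 FPKM in CD44lo. One label text describes a conditional Rpa1 deletion in its place, but Rpa1 was not lost in any library (27.4 to 41.4 FPKM). Markers of CD8+ T cells summed to 915 to 1309 FPKM, while Cd4 reached 0.0228 FPKM at most. Xist, the RNA of the inactive X chromosome, was found in the Dusp2KO CD44hi libraries, at 15.1 and 15.5 FPKM, and at no more than 0.0064 FPKM elsewhere, while the Y-linked Ddx3y stood between 10.3 and 13.6 FPKM in every library. The sex make-up of the cells and the genotype therefore cannot be told apart in CD44hi. In Dusp2KO, where Xist was at 0 FPKM in CD44lo, sex make-up and CD44 fraction cannot be told apart either. The test of whether the genotype difference changed with the fraction has the same limit.

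All 10 Gbp genes were expressed, and Gbp2 dominated. Gbp2, whose protein restricts Toxoplasma at its vacuole, was at 153 and 162 FPKM in WT CD44hi, 165 and 167 in Dusp2KO CD44hi, 510 in WT CD44lo and 429 in Dusp2KO CD44lo. It supplied 50.7% to 55.4% of the summed FPKM of the family in the CD44hi libraries and 61.5% and 63.0% in WT and Dusp2KO CD44lo. The order of levels per length was Gbp2, Gbp4, Gbp9, Gbp5 in each of the 6 libraries. In WT CD44hi, Gbp4 (38.5 ± 4.24 FPKM, SD, n = 2) stood above Gbp9 (33.4 ± 4.37) in each library. The values were 41.5 against 36.5 and 35.5 against 30.3 FPKM. Gbp3 (11.3 ± 0.231), Gbp6 (11.2 ± 0.786) and Gbp8 (10.3 ± 2.71) changed order between the libraries. Gbp11 was the lowest in all 4 CD44hi libraries, at 1.26 to 2.00 FPKM. Counts behind these values were high, from 172 reads (Gbp11, WT CD44hi replicate 1) to 65379 reads (Gbp2, WT CD44lo).

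Similar sequence limits how far single members can be told apart. Of the distinct 75-base stretches in the GENCODE reference transcripts (GRCm38), 67.3% of those of Gbp6 and 77.8% of those of Gbp10 also occur in another gene, mostly Gm43302. The values of Gbp6 and Gbp10 are therefore uncertain. For Gbp7, Gbp11 and Gbp8 the share was 11.3%, 10.3% and 8.04%, and for the other 5 members it was 0.58% to 3.61%.

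**Figure D1:**
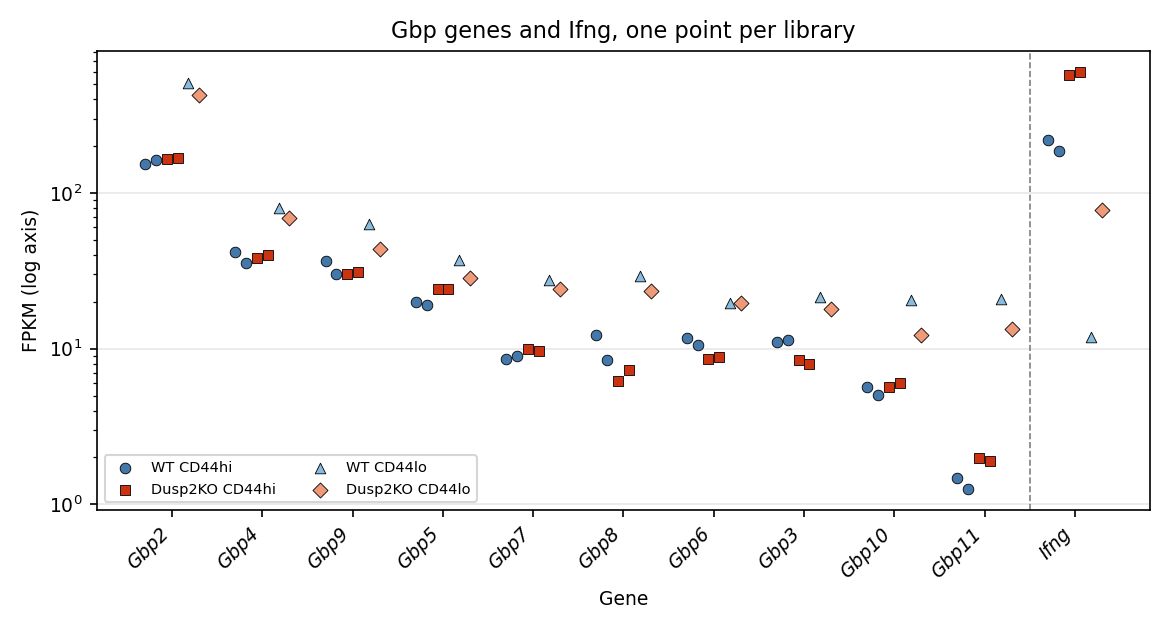
FPKM (log axis) of the 10 Gbp genes, ordered by mean level, and of Ifng, with 1 point per library (2 WT CD44hi, 2 Dusp2KO CD44hi, 1 WT CD44lo, 1 Dusp2KO CD44lo). For every Gbp gene both CD44lo points lie above all 4 CD44hi points, whereas for Ifng they lie below them.

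Each Gbp gene was measured lower in the CD44hi than in the CD44lo fraction, in both genotypes. For all 10 members both CD44lo libraries lay above all 4 CD44hi libraries, a pattern seen in 15.1% of the 9691 genes tested. The members' FPKM summed to 301 and 292 in WT CD44hi and 299 and 304 in Dusp2KO CD44hi, against 830 in WT CD44lo and 681 in Dusp2KO CD44lo. The CD44lo sum was thus 2.80 times the CD44hi mean in WT and 2.26 times in Dusp2KO. In bulk samples, fewer cells that express a gene and less RNA of it per cell cannot be told apart.

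In WT, all 10 members passed the test as lower in CD44hi (limma adjusted p under 0.05), against 10.7% of all genes tested. Their median difference in log2(FPKM + 1) was -1.24, beside 0.05 over all genes. In 6 of the 10 the difference was 1 log2 unit or more, against 1.49% of genes. The widest gap was that of Gbp11, which was at 1.47 and 1.26 FPKM in WT CD44hi and at 20.8 FPKM in WT CD44lo, a 15.2-fold difference (-3.21 in log2(FPKM + 1), SE 0.107, limma adjusted p = 3.3e-05). Gbp10, at 5.64 and 5.01 against 20.4 FPKM, and Gbp2, at 153 and 162 against 510 FPKM, differed by -1.76 and -1.69. Gbp7, which is needed with Gbp2 for control of Toxoplasma in mice, was at 8.58 and 8.97 against 27.7 FPKM (-1.55). The CD44hi and CD44lo values of these genes did not come near each other. Gbp8 was at 12.2 and 8.40 against 29.1 FPKM (-1.43) and Gbp4 at 41.5 and 35.5 against 80.6 FPKM (-1.05). Gbp9 (36.5 and 30.3 against 62.8 FPKM), Gbp5 (20.0 and 19.0 against 36.9 FPKM), Gbp3 (11.1 and 11.4 against 21.6 FPKM) and Gbp6 (11.7 and 10.6 against 19.8 FPKM) differed least, by -0.90, -0.89, -0.88 and -0.77. Because CD44lo had 1 library per genotype, the test assumes that it varies like the CD44hi pairs.

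In Dusp2KO, 9 of 10 members passed the test as lower in CD44hi than in CD44lo, against 16.5% of all genes. The median over all 10 members was -1.06, beside 0.05 over all genes. The difference was 1 log2 unit or more in 6 of them, against 1.86% of genes. Gbp11 again differed most, at 2.00 and 1.90 against 13.4 FPKM (-2.28, SE 0.107, limma adjusted p = 7.6e-05). It was followed by Gbp8 (6.19 and 7.30 against 23.6 FPKM, -1.67) and Gbp2 (165 and 167 against 429 FPKM, -1.36). The member that did not pass was Gbp5, whose protein has been linked to inflammasome assembly. It was at 24.1 and 24.2 FPKM in CD44hi and 28.5 FPKM in CD44lo (-0.23, SE 0.077, limma adjusted p = 0.0545), and it passed with median-ratio scaling, with the length trend removed and without either WT CD44hi library. Both fraction comparisons rest on the same pooled spread from the CD44hi pairs.

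Counts with each library left out bear on these calls. All 10 members stayed lower in WT whichever CD44hi library was left out, and in Dusp2KO 9 or 10 did. Listed markers of other cells and signs of RNA quality also moved with the sort. The summed dendritic cell markers were at 2.13 to 3.32 FPKM in CD44hi and at 0.305 and 1.14 FPKM in CD44lo. Of that list, 4 of 6 genes were in the table. Pecam1 was highest in WT CD44lo, at 14.3 FPKM. It made up nearly all of the stroma and endothelium list there, which summed to 14.4 FPKM, so the list rests on this gene alone. The macrophage gene Lyz2 was listed at 0 in 5 libraries and at 0.134 FPKM in WT CD44lo, and its list summed to 2.82 to 4.11 FPKM, nearly all from Cd68. Mitochondrial reads made up 2.03% to 2.94% of reads in CD44hi and 2.56% and 3.79% in WT and Dusp2KO CD44lo. Their part in the Gbp difference was not tested.

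**Figure D2:**
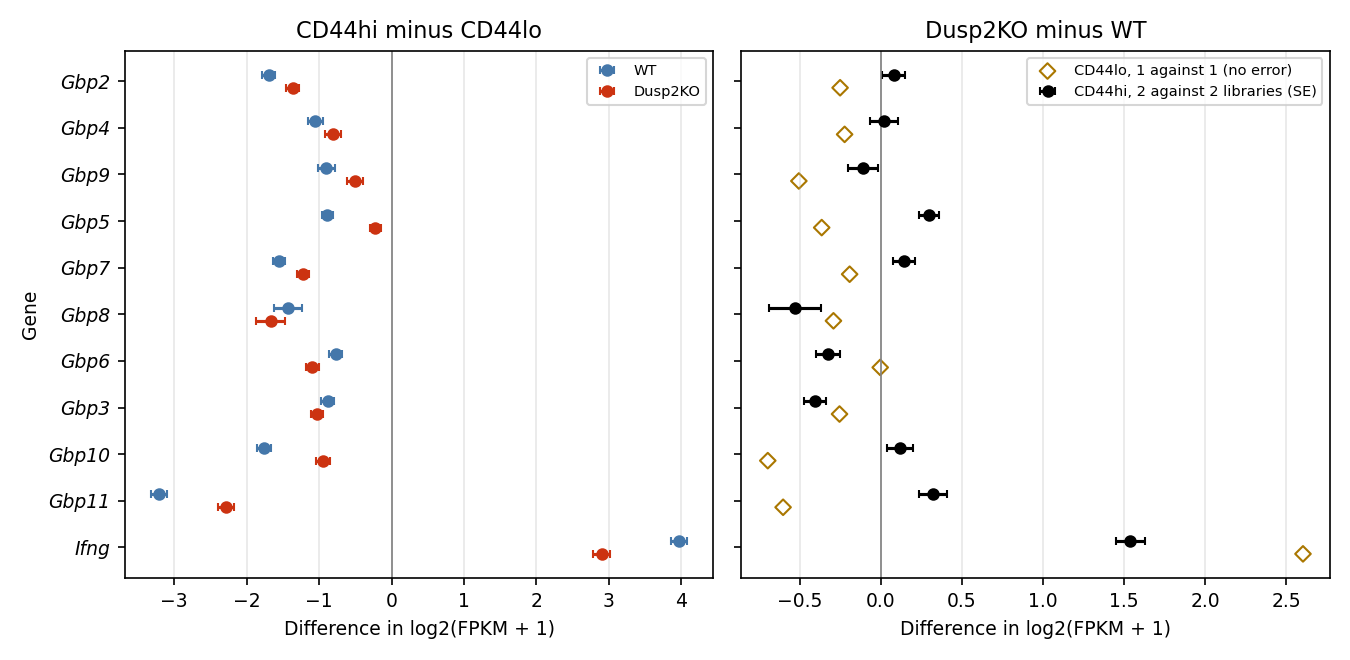
Differences in log2(FPKM + 1) of the 10 Gbp genes and Ifng, left for CD44hi minus CD44lo in each genotype (SE from the fit, in which the single CD44lo libraries borrow the spread of the CD44hi pairs), right for Dusp2KO minus WT. All Gbp points on the left lie below 0 and the Ifng points at 3.96 and 2.90, while on the right the Gbp points scatter about 0 in CD44hi and lie at or below 0 in the single CD44lo pair.

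Between the genotypes in CD44hi, the summed level of the family did not differ beyond its spread, and single members moved in both directions. The summed FPKM of Dusp2KO was 1.02 times that of WT, and the median member difference was 0.05, beside -0.02 over all genes. Gbp5 and Gbp11 rose and Gbp3 and Gbp6 fell, so that 4 of 10 members passed the test, against 26.7% of all genes (12.9% higher, 13.8% lower). A share of 4 in 10 is near that background. The genotypes did not overlap in 8 members, 5 higher and 3 lower in Dusp2KO, against 68.2% of all genes (32.0% higher, 36.2% lower), while Gbp4 and Gbp9 overlapped.

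The clearest of these differences was in Gbp3, at 11.1 and 11.4 FPKM in WT and 8.49 and 8.003 FPKM in Dusp2KO (log2 fold change -0.41, SE 0.068, limma adjusted p = 0.00944). Both Dusp2KO libraries lay below both WT libraries. Gbp6, one of the members reported to act against intracellular bacteria, was at 11.7 and 10.6 FPKM in WT and at 8.57 and 8.87 FPKM in Dusp2KO (-0.32, SE 0.074, limma adjusted p = 0.0236). Gbp5 went the other way, from 20.0 and 19.0 FPKM in WT to 24.1 and 24.2 FPKM in Dusp2KO (0.30, SE 0.063, limma adjusted p = 0.0184). Gbp11, from 1.47 and 1.26 to 2.00 and 1.90 FPKM (0.32, SE 0.087, limma adjusted p = 0.0381), also rose, on 172 and 192 against 305 and 270 reads. Gbp3 and Gbp5, both in the chromosome 3 cluster, thus moved in opposite directions, and so did Gbp6 and Gbp11 in the chromosome 5 cluster.

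Of the other 6, Gbp8 had the widest spread, at 12.2 and 8.40 FPKM in WT against 6.19 and 7.30 FPKM in Dusp2KO (-0.53, SE 0.160, limma adjusted p = 0.0517). Its genotypes did not overlap, but its WT libraries differed 1.46-fold from each other. It passed with the filter at 5 FPKM (limma adjusted p = 0.0396), with median-ratio scaling (0.0378), with quantile normalization (0.0411), with limma voom (0.0368) and without WT CD44hi replicate 2 (0.00409). Gbp2 (0.08, SE 0.073), Gbp7 (0.14, SE 0.066) and Gbp10 (0.12, SE 0.082) were slightly higher in both Dusp2KO libraries and did not pass. Gbp4, at 41.5 and 35.5 against 38.1 and 39.8 FPKM (0.02, SE 0.085), and Gbp9, at 36.5 and 30.3 against 30.4 and 31.1 FPKM (-0.11, SE 0.093), showed no difference beyond the spread of their WT libraries. The 4 calls depend on single libraries, the filter and, for Gbp6, the scaling. With no filter on low values their limma adjusted p-values were 0.071 (Gbp3), 0.0731 (Gbp5), 0.106 (Gbp6) and 0.128 (Gbp11). With totals rescaled to 1000000 Gbp6 did not pass (limma adjusted p = 0.0539), which left 3 members. Without Dusp2KO CD44hi replicate 1 only Gbp3 passed, and without Dusp2KO CD44hi replicate 2 only Gbp8 did (limma adjusted p = 0.0109, with Gbp3 at 0.0644). Of the 5 listed B cell markers, only 2 had values. Cd79b moved with the genotype, at 22.4 and 24.5 FPKM in Dusp2KO CD44hi against 12.2 and 9.88 FPKM in WT CD44hi. Cd79a did not rise with it, at 0.0727 and 0.182 FPKM in Dusp2KO CD44hi against 0.379 and 0.194 FPKM in WT CD44hi. Mitochondrial reads were 2.73% and 2.94% of reads against 2.15% and 2.03%. Their part in these differences was not tested.

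In the CD44lo fraction, with 1 library per genotype and no test, 9 members were lower in Dusp2KO under every scaling tried, and Gbp6 was level (-0.0040, and 0.0113 with median-ratio scaling, 0.0048 with quantile normalization and 0.0435 with the length trend removed). Of all genes 51.6% were lower. None differed by 1 log2 unit or more, as did 1.68% of genes. The differences ran from -0.70 in Gbp10 (20.4 FPKM in WT and 12.2 FPKM in Dusp2KO), -0.60 in Gbp11 (20.8 and 13.4 FPKM) and -0.51 in Gbp9 (62.8 and 43.9 FPKM) to the level Gbp6 (19.8 and 19.7 FPKM). Their median was -0.27, beside -0.01 over all genes, and the summed FPKM of Dusp2KO was 0.820 times that of WT. The Dusp2KO CD44lo library was also the shallowest, with 858 reads for Gbp11 and 25737 reads for Gbp2.

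The test of whether the genotype difference itself differed between the fractions gave 3 of 10 members, all higher in CD44hi relative to CD44lo, against 4.22% of all genes (2.73% higher). For Gbp11 the genotype difference was 0.32 in CD44hi and -0.60 in CD44lo (interaction 0.92, SE 0.151, limma adjusted p = 0.0371). For Gbp10 it was 0.12 and -0.70 (interaction 0.82, SE 0.142, limma adjusted p = 0.0418). For Gbp5 it was 0.30 and -0.36 (interaction 0.66, SE 0.108, limma adjusted p = 0.0371). These 3 genes were measured higher in Dusp2KO in CD44hi and lower in it in CD44lo, though the CD44hi difference of Gbp10 did not pass. Of the 3, only Gbp11 passed once the trend of each library on gene length was removed, or once the variance trend was dropped, and none passed with no filter on low values (limma adjusted p = 0.109 to 0.135). The count rose from 3 to 6 without either WT CD44hi library. Gbp6 (-0.32), Gbp8 (-0.24) and Gbp3 (-0.15) had interactions of the opposite sign that did not pass. With 1 genotype difference fitted for both fractions, Gbp3 alone passed (-0.36, SE 0.075, limma adjusted p = 0.0285), against 10.4% of all genes (5.17% lower). It did not pass when any 1 of the 4 CD44hi libraries was left out.

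Ifng, the gene of the cytokine that acts on this family, ran against it across the sort. It was at 217 and 186 FPKM in WT CD44hi, 571 and 601 in Dusp2KO CD44hi, 11.9 in WT CD44lo and 77.7 in Dusp2KO CD44lo. In WT the CD44hi libraries were higher by 3.96 in log2(FPKM + 1) (SE 0.112, limma adjusted p = 3e-05), where the Gbp genes were lower by 0.77 to 3.21. The ratio of Ifng to the summed Gbp FPKM was 0.721 and 0.636 in WT CD44hi, 1.91 and 1.98 in Dusp2KO CD44hi, 0.0144 in WT CD44lo and 0.114 in Dusp2KO CD44lo. Across genotype in CD44hi, Ifng was 2.91-fold higher in Dusp2KO (1.54, SE 0.091, limma adjusted p = 0.00064) with the Gbp sum at 1.02-fold. With no filter on low values that Ifng difference did not pass (limma adjusted p = 0.0622). In CD44lo, Ifng was 6.50-fold higher in Dusp2KO with 9 of the 10 Gbp genes lower and Gbp6 level. In none of these comparisons was the group with more Ifng also the one with a higher Gbp sum beyond the spread of its libraries. Gbp2 made up 50.7% to 63.0% of that sum. Single members went both ways in Dusp2KO CD44hi, with Gbp5 (0.30) and Gbp11 (0.32) called higher, and Gbp3 (-0.41) and Gbp6 (-0.32) lower. The Ifng interaction was -1.06 (SE 0.158, limma adjusted p = 0.0331), opposite in sign to those of Gbp5, Gbp10 and Gbp11, and it did not pass with the length trend removed (-0.82, limma adjusted p = 0.0875), with quantile normalization (-0.83, limma adjusted p = 0.0535), without a variance trend (limma adjusted p = 0.0505) or with no filter (limma adjusted p = 0.140).

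**Figure D3:**
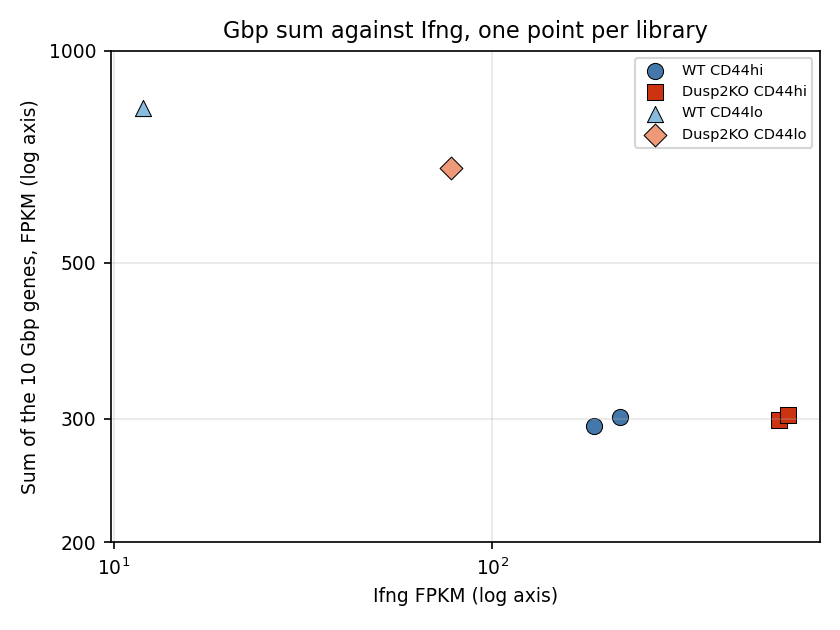
Summed FPKM of the 10 Gbp genes against Ifng FPKM, both on log axes, with 1 point per library. The CD44lo libraries have Gbp sums of 830 and 681 at Ifng levels of 11.9 and 77.7 FPKM, and the 4 CD44hi libraries have sums of 292 to 304 at Ifng levels of 186 to 601 FPKM.

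Upstream genes were read from lists of the interferon pathway. Of the ligands other than Ifng, the listed type I interferon genes in the table, Ifna4 and Ifnk, were above 0 in at most 1 library. Of 7 receptor and JAK genes, 1 rose and 2 fell in Dusp2KO CD44hi, against 12.9% of all genes higher and 13.8% lower. Ifnar1, a chain of the type I interferon receptor, fell from 19.8 and 18.4 to 14.2 and 14.3 FPKM (-0.40, limma adjusted p = 0.00973) and Ifngr2, a chain of the IFN-γ receptor, from 4.96 and 5.03 to 3.61 and 3.55 FPKM (-0.39, limma adjusted p = 0.0145). Jak2 rose by 0.23 and Ifnar2 was at -0.21 without passing. Across the sort in WT, 3 of the 7 receptor and JAK genes were lower in CD44hi, against 10.7% of all genes, and none was higher. These were Ifngr1 (-1.04), the other chain of the IFN-γ receptor, Jak1 (-0.82) and Ifngr2 (-0.50), while Ifnar1 (0.12) and Ifnar2 (0.21) did not pass. In Dusp2KO, Ifngr1, Jak1 and Ifngr2 differed by -1.44, -0.33 and -0.82, and Tyk2 by 0.32.

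Of the 6 interferon regulatory factor genes listed, Irf1, Irf2, Irf7 and Irf9 fell in Dusp2KO CD44hi and Irf4 and Irf8 rose, against 13.8% of all genes lower and 12.9% higher. Irf1, a transcription factor that itself drives Gbp genes, was at 73.7 and 68.9 FPKM in WT CD44hi, 40.1 and 38.8 in Dusp2KO CD44hi, 129 in WT CD44lo and 93.9 in Dusp2KO CD44lo. It fell by 0.84 in Dusp2KO CD44hi (limma adjusted p = 0.00108). Irf9 (-0.55) and Irf7 (-0.67), which act in type I interferon signalling, and Irf2 (-0.33) fell as well, while Irf8 (0.47) and Irf4 (0.37) rose. Irf4 and Irf8 were also higher in WT CD44hi than in the WT CD44lo library, by 0.58 and 0.40 in log2(FPKM + 1) (limma adjusted p = 0.00601 and 0.0134). The 4 that fell were lower there (limma adjusted p = 0.000847 for Irf1, 0.013 for Irf2, 0.00318 for Irf9 and 0.000185 for Irf7). Irf7 was at 38.3 and 43.3 FPKM in WT CD44hi and at 117 in WT CD44lo. Of 9 negative regulators, 4 fell and Ptpn11 (0.21) rose in Dusp2KO CD44hi, against 13.8% of all genes lower and 12.9% higher. Those that fell were Socs1 (-0.30), Usp18 (-0.30), Ptpn6 (-0.33) and Cish (-0.41).

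Among other interferon targets, most type I interferon response genes were lower in CD44hi, as the Gbp genes were, and many also fell in Dusp2KO CD44hi. In WT, 24 of the 27 were lower in CD44hi than in CD44lo, against 10.7% of all genes, and none was higher (median -1.04, beside 0.05 over all genes). In CD44hi, 14 of the 27 fell in Dusp2KO and none rose, against 13.8% and 12.9% of all genes (median -0.28, beside -0.02). Among those that fell were the antiviral genes Oasl1 (-0.88), Rtp4 (-0.70), Zbp1 (-0.59) and Xaf1 (-0.53). Of 15 tested IFN-γ response genes outside the GTPases, 9 were lower in WT CD44hi than CD44lo, against 10.7% of all genes. In Dusp2KO CD44hi, 1 of the 15 rose and 2 fell (median -0.05), which is near the shares of all genes. The riser was the adhesion molecule Icam1 (0.75), and the fallers were the chemokine gene Cxcl10 (-0.30) and the proteasome activator gene Psme1 (-0.31), with the peptide-loading gene Tapbp at -0.23 without passing. Whether these lists differ from the Gbp genes was not tested.

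The p47 immunity-related GTPases, which act on the same vacuoles as the GBPs, had 8 of 9 tested members lower in CD44hi than CD44lo in each genotype (median -0.94 in WT), against 10.7% of all genes in WT and 16.5% in Dusp2KO. In Dusp2KO CD44hi, 2 of the 9 rose and none fell (median 0.03), against 12.9% and 13.8% of all genes, so that the share is near the background. These were Iigp1, from 15.9 and 16.7 to 24.2 and 25.3 FPKM (0.58, limma adjusted p = 0.00291), and the low Gm4951 (0.48). Irgm2 (0.15) and Tgtp2 (-0.17) did not pass. Of 5 other large GTPases and atlastins, the GTPase gene Gvin1 (0.39) and the atlastin Atl3 (0.35) rose, against 12.9% of all genes. The antiviral dynamin-like Mx1 (-0.66) and Mx2 (-0.77) fell, against 13.8% of all genes.

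**Figure D4:**
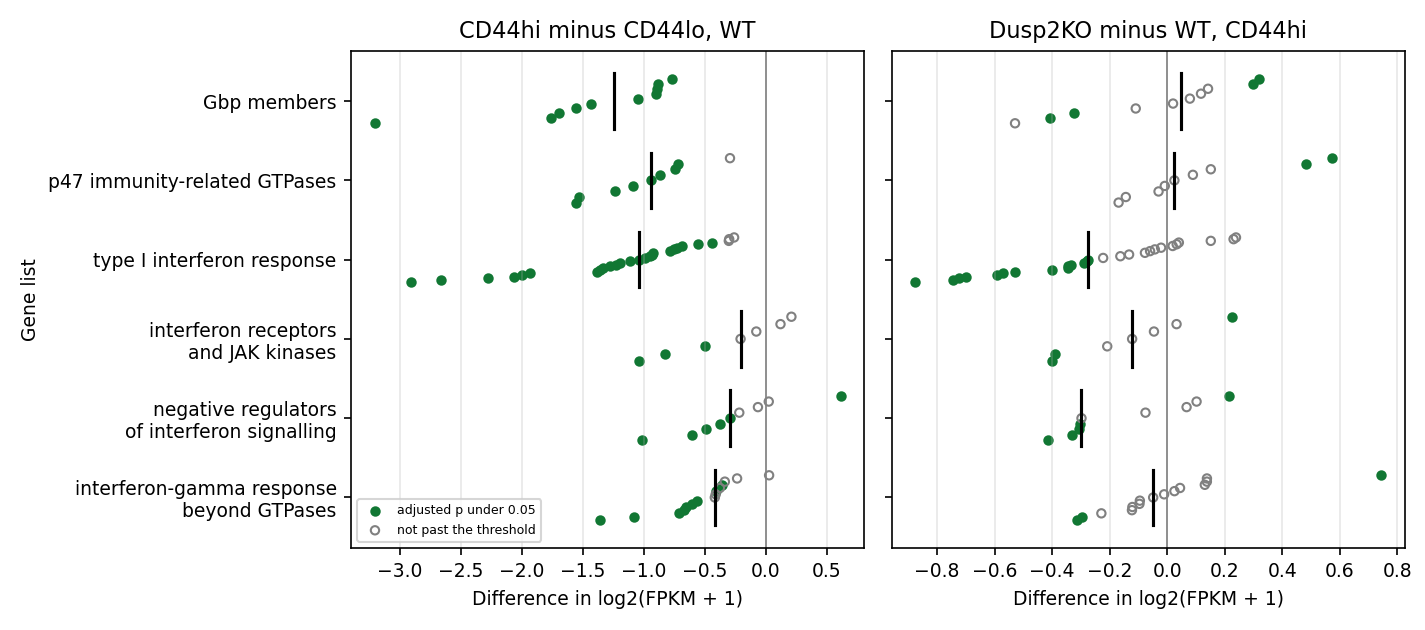
Differences in log2(FPKM + 1) for the Gbp members and 5 lists of the interferon pathway, 1 point per tested gene, filled where limma's adjusted p is under 0.05, with a black bar at each median. On the left (CD44hi minus CD44lo in WT) the Gbp median is -1.24 and that of the type I interferon list -1.04, and on the right (Dusp2KO minus WT in CD44hi) they are 0.05 and -0.28.

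Of 13 tested genes of cell-autonomous defence whose products work with GBPs, 1 rose and 2 fell in Dusp2KO CD44hi, a share near the 26.7% of all genes called. These were Traf6 (0.24), the autophagy receptor gene Sqstm1 (-0.41) and Trim21 (-0.27), and the DNA sensor gene Aim2 was at 0.28 without passing. Irgm1, Irgm2 and Igtp, none of them called, were counted both here and among the p47 GTPases. Of 5 genes that attach the lipid anchor of CaaX proteins or process the anchored end, Icmt (0.40) and Pggt1b (0.32) rose in Dusp2KO CD44hi. Of all genes 12.9% rose. Fnta (-0.17) and Rce1 (-0.15) did not pass.

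Among 6300 ranked genes that were not members, the 5 closest to the mean Gbp profile over the 6 libraries were Sft2d2, Parp10, Phf11a, Tgtp2 and Rsad2. Their root mean square distances in centred log2(FPKM + 1) were 0.070, 0.081, 0.090, 0.094 and 0.105. The members themselves lay at 0.117 (Gbp7) to 0.718 (Gbp11) from that mean, and Ifng at 2.46. The like genes are a description over 6 libraries that share their depth and scaling.

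Among the genes beside the 2 Gbp clusters, none passed as lower in WT CD44hi than in WT CD44lo, and 1 did in Dusp2KO, Gtf2b (-0.28, limma adjusted p = 0.0444). Of the 3 tested genes on each side of the chromosome 3 cluster (Tspan5, Rap1gds1, Pdlim5, Gtf2b, Pkn2 and Lmo4), none passed for genotype in CD44hi or for fraction in WT. At the chromosome 5 cluster, the neighbours Lrrc8b (0.37, limma adjusted p = 0.0243) and Lrrc8c (0.56, limma adjusted p = 0.0102), subunits of volume-regulated anion channels, rose in Dusp2KO CD44hi, and Lrrc8b was higher in WT CD44hi than CD44lo (0.39, limma adjusted p = 0.0379). Gbp2b, a further family gene in the chromosome 3 cluster, was at most 0.0625 FPKM.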

How the data were processed

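Bulk RNA-seq values came as 1 table of FPKM that the authors deposited, with 1 column per library, and every column was matched to a sample title. The submitters' processing notes name HISAT2 2.0.5 with mm39 and hg38 as builds, with no role for either. How fragments were counted is not given in the sources used here. Whole reads were recovered from the FPKM steps (all of 16220 rows above 0 in at least 2 libraries, within 1e-06 reads, against 26 of 500 perturbed rows) and gave depths and 1 alternative only.

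Differences in log2(FPKM + 1) were tested two-sided with limma (version 3.58.1, R 4.3.3) and a variance trend. P-values were adjusted by Benjamini-Hochberg over the 9691 genes whose mean reached 1 FPKM, at a threshold of 0.05. All 10 Gbp genes passed that filter. Fold changes on this scale understate the change of low genes. Means per group (2 residual degrees of freedom, both from CD44hi) gave the genotype, fraction and interaction differences, and an additive model (3 residual degrees of freedom) the shared genotype difference. The comparisons share libraries. The CD44lo genotypes, with 1 library each, were compared without a test. Whether libraries of a group are separate animals or cultures is not stated, so p-values may reflect technical spread alone. The script was tested on simulated data.

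The members and gene lists were chosen with earlier results of these data known. All members were named, with at most 4 genes per list by smallest p in the CD44hi genotype comparison, the 5 genes nearest to the mean Gbp profile (mean of at least 5 FPKM), 3 genes on either side of each cluster, and Dusp2, Rpa1, Cd44, Cd8a and Xist. Other genes were chosen after their values were seen. Coordinates and promoters are from RefSeq (GRCm38.p6), which is not a build named in the notes. As alternatives, the pseudocount was 0.1 or 0.5, the filter was dropped or raised to 5 FPKM, and 3 scalings were tried, with removal of the length trend (loess, span 0.5), a fit without variance trend, limma voom on recovered reads, a replicate block, and each library left out. One pathway gene, and the counts of the list that holds it, are not reported here.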

Additional observations from a re-analysis of the deposited data

Results flagged for a closer look

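In 4 genes the genotype difference was not the same in both sorted fractions by the test of the difference itself (limma, adjusted over 9691 genes). The interaction, CD44hi minus CD44lo, was 0.66 for Gbp5, 0.82 for Gbp10 and 0.92 for Gbp11. These genes were measured higher in Dusp2KO in CD44hi and lower in it in the single CD44lo pair. For Gbp10 the CD44hi difference did not pass (0.12, SE 0.082, limma adjusted p = 0.319). Its values are also uncertain, since 77.8% of its 75-base stretches occur in another gene. For Ifng the interaction was -1.06, with Dusp2KO higher in both fractions. The CD44lo side rests on 1 library per genotype. With no filter on low values, none of the 4 passed. Xist was found in the Dusp2KO CD44hi libraries and at no more than 0.0064 FPKM elsewhere. Sex make-up and these interactions therefore cannot be told apart.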

How the results depend on the processing

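Depth limits Gbp11 most, with 172 to 305 reads in the CD44hi libraries, and the CD44lo fraction has no replicate. The call that all 10 members were lower in WT CD44hi held under every alternative run except no filter on low values, which gave 8, and in Dusp2KO the count ran from 6 with no filter to 10. In the genotype comparison in CD44hi the count of 4 was 1 to 6 with 1 library left out. Without any filter limma called 0 members in that comparison, 0 for the interaction and 0 with both fractions combined (5, 5 and 2 at an unadjusted p under 0.05). The interaction count of 3 was 1 with the length trend removed, 1 without a variance trend and 3 to 6 with a library left out. With both fractions combined, the count of 1 was 0 to 4 with a library left out, where the 4 come from leaving out a CD44lo library, a fit that only repeats the CD44hi comparison. The replicate numbers are names only and the deviations of equal numbers correlated at 0.0224 across genes, so the replicate block gives no pairing. It gave 5, 10, 9, 3 and 0 members (2 at an unadjusted p under 0.05 in the last) in the genotype, WT fraction, Dusp2KO fraction, interaction and combined comparisons. Signs turned in 4 small differences that were not called, the first Gbp6 in CD44lo, from -0.0040 to 0.0435 with the length trend removed. In the others, Gbp4 in CD44hi was -0.042 with the length trend removed and -0.089 to 0.130 with a library left out, Gbp9 -0.239 to 0.021, and the Gbp8 interaction -0.483 to 0.0098. Rescaling to equal totals moved the median of all genes from 0.05 to 0.18 in the Dusp2KO fraction comparison, where 8 members passed as lower. Over all genes tested, the counts ran from 2 (no filter) to 4092 (without WT CD44hi replicate 1), against 2586, in the CD44hi genotype comparison, and from 39 to 3046, against 409, for the interaction. Against 2527, 3888 and 1008, they ran from 1170 to 3825, 2085 to 5515 and 215 to 2590 in the WT fraction, Dusp2KO fraction and combined comparisons. The cause was not tested.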
